A study of Mus musculus with 14 samples.

Results

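The clustered protocadherins are cell adhesion genes that lie side by side on mouse chromosome 18 in the subclusters Pcdha, Pcdhb and Pcdhg. Members were the protein-coding genes of GENCODE release M21 in the mouse genome build mm10 whose symbols begin with Pcdha, Pcdhb or Pcdhg and end in an isoform code. This gave 57 of 21938 protein-coding genes, namely 14 Pcdha, 22 Pcdhb and 21 Pcdhg genes. All members are transcribed from the forward strand. Pcdhgb8 is annotated as a polymorphic pseudogene and was not counted as a member. The readthrough genes Gm37013, Gm37388 and Gm42416, which join exons of several members, were not counted either and had 0 peaks each. In GENCODE 2 genes carry the symbol Pcdha11, and the one with the identifier ENSMUSG00000007440.10 is Pcdha10 by its Entrez and RefSeq entries and is called Pcdha10 here.

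Trimethylation of lysine 4 of histone H3 (H3K4me3) was mapped by chromatin immunoprecipitation and sequencing in iMEF cells, immortalised mouse embryo fibroblasts. Exon 4 of both endogenous floxed Ash2l alleles had been deleted by a tamoxifen-inducible Cre-ER, and the cells lived on a lentiviral transgene for human ASH2L fused to FKBP. The study names 1 clone, NG3, as the source. ASH2L is a core subunit of the KMT2 complexes that methylate H3K4, and the compound dTAG brings the FKBP fusion to a ubiquitin ligase for degradation. The labels describe 12 H3K4me3 libraries, with 2 replicates each of untreated cells and of cells given dTAG for 30 min, 2 h, 4 h, 8 h or 16 h. They also describe 2 input libraries, 1 untreated and 1 treated for 16 h. The analysis rested on a union list of H3K4me3 peaks and on a list of putative enhancers, both of which give positions. Neither list holds a value per library. A peak in the union list may stem from untreated cells, from treated cells or from both. From the lists, no replicate error could be computed and the times after dTAG were not compared at these genes. The study names a further list of sites that changed at each time, which was not used here. Its methods give a minimum of raw reads planned per library, but the depth each library reached is not in the lists.

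Most clustered protocadherins are built from a long variable first exon that encodes the extracellular and transmembrane parts. In Pcdha and Pcdhg each variable exon has its own promoter and is spliced to constant exons shared by the subcluster. Pcdhb genes consist of a single exon and lack constant exons. The last genes of Pcdha and Pcdhg are called C-type. In neurons a cell uses few variable promoters, chosen at random, and carries the resulting proteins as a surface identity for self-recognition, while C-type genes are expressed more broadly. Promoter choice is known to involve the insulator protein CTCF, cohesin, DNA methylation and distal enhancers. H3K4me3 marks active promoters in general.

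H3K4me3 was found at few of these genes. A peak with any base within 1 kb of a transcription start site (TSS) lay at 10 of the 57 members (17.5%). Over all protein-coding genes the share was 59.1%, 12966 of 21938. The members with a peak were Pcdhac2, Pcdhb18, Pcdhb19, Pcdhb21, Pcdhb22, Pcdhgb1, Pcdhga6, Pcdhga10, Pcdhgc3 and Pcdhgc5. They held 11 peaks in all, since Pcdhgc3 had 2, and no peak was shared between members. The distance rule left no close cases. The most distant peak counted lay 200 bp from the nearest TSS of its gene (Pcdhb18), and the closest peak not counted lay 3498 bp away (from Pcdhga12). Across the 47 members without a peak, the nearest peak was 3498 to 134719 bp away, with a median of 17895 bp.

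**Figure D1:**
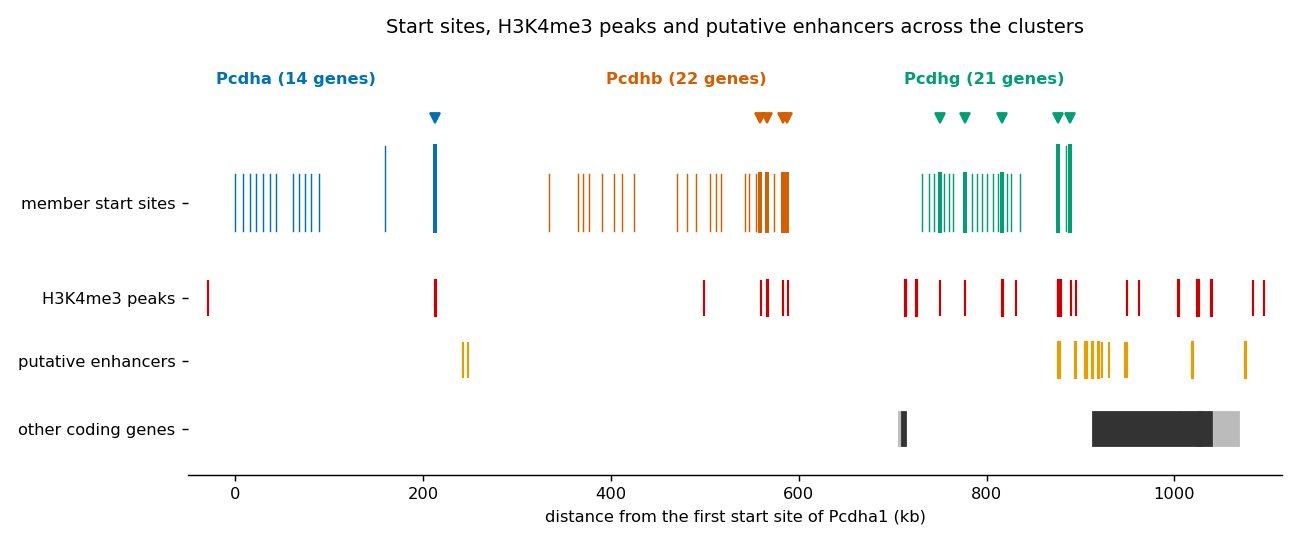
Positions in kb from the first start site of Pcdha1. Vertical ticks in the top row are member start sites (taller, C-type; thick with a triangle, a peak within 1 kb), red and orange marks are H3K4me3 peaks and putative enhancers, and dark and light blocks are other protein-coding genes with and without a peak. The 10 marked members sit at the ends of Pcdha and Pcdhb and are spread through Pcdhg.

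C-type genes were marked in 3 of 5 cases (60%) and variable genes in 7 of 52 (13.5%). The groups are small and no test was made. By subcluster, the counts were 1 of 14 Pcdha (7.14%), 4 of 22 Pcdhb (18.2%) and 5 of 21 Pcdhg genes (23.8%). Pcdhb genes have a single exon, and of all single-exon protein-coding genes 403 of 2478 (16.3%) had a peak, a share near that of Pcdhb. Among variable genes, a peak lay at 0 of 12 in Pcdha and at 3 of 18 in Pcdhg, made up of 2 of 12 Pcdhga and 1 of 6 Pcdhgb genes.

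In Pcdha the peak was at the last gene. The subcluster spans 257.478 kb, from 36930184 to 37187661, and starts with Pcdha1. Pcdha1 to Pcdha12 and the first C-type gene, Pcdhac1, had no peak, a run of 13 neighbouring genes whose start sites cover 159.829 kb. Pcdhac1 lay 53299 bp from the nearest peak. The second C-type gene, Pcdhac2, had a peak of 1223 bp from 37143312 to 37144534. It ran from -191 to 1031 bp relative to the TSS at 37143503, and 84.4% of its bases were in the first exon. Its width ranked at percentile 47.7 of the widest peaks at marked protein-coding genes, and it was the only peak in the Pcdha span.

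In Pcdhb the marked genes lay together at the distal end. The subcluster spans 259.542 kb, from 37264938 (the start of Pcdhb1) to 37524479 (the end of Pcdhb22). Pcdhb1 to Pcdhb17, a run of 17 genes whose start sites cover 219.857 kb, had no peak. Of the last 5 genes, all but Pcdhb20 had one. Pcdhb20 lay 6766 bp from the nearest peak, and Pcdhb2 had the most distant one of all members, 134719 bp away.

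The 4 Pcdhb peaks were short. Pcdhb18 had a peak of 212 bp, from 37489665 to 37489876, wholly inside its coding sequence and 200 bp after the TSS. The peak at Pcdhb19 was 518 bp wide, from 37496981 to 37497498. At Pcdhb21 a peak of 495 bp lay from 37513582 to 37514076. Pcdhb22, the last gene, had 428 bp, from 37518374 to 37518801, after the end of Pcdhb21, whose exon overlaps the start of Pcdhb22. Coding sequence made up between 51.9% (Pcdhb21) and 100% (Pcdhb18) of these peaks. Another peak in the span, 250 bp from 37429559 to 37429808, lay 5813 bp before Pcdhb12 and at no annotated TSS.

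In Pcdhg the marked genes were scattered among runs of unmarked ones. The subcluster spans 180.081 kb, from 37661793 (Pcdhga1) to 37841873, the end of the last constant exon. Among its variable genes, Pcdhgb1 had a peak of 679 bp, from 37680221 to 37680899. Pcdhga6 had a peak of 487 bp, from 37707094 to 37707580. The peak at Pcdhga10, from 37747023 to 37747448, was 426 bp wide. Runs without a peak were Pcdhga1 to Pcdhga3 (3 genes), Pcdhga4 to Pcdhga5 (3 genes, with Pcdhgb2), Pcdhga7 to Pcdhgb6 (6 genes) and Pcdhgb7 to Pcdhga12 (3 genes). Unmarked variable Pcdhg genes were closer to a peak, 3498 to 18126 bp, while for variable Pcdha genes the nearest peak was 28644 to 118609 bp away. The pseudogene Pcdhgb8, which lies between Pcdhga11 and Pcdhga12, had a peak of 353 bp from 37761730 to 37762082.

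The C-type genes of Pcdhg differed among themselves. Pcdhgc3 had the widest peak of all members, 3157 bp from 37806382 to 37809538, at percentile 97.6 of the widest peaks at marked protein-coding genes. It covered all 2568 bp of the first exon of the main transcript, and it contained the TSS of the antisense transcript BC037039. A second peak of 370 bp, from 37805895 to 37806264, ended 100 bp before the first TSS of Pcdhgc3. Pcdhgc4 had none, with the nearest peak 4128 bp away. Pcdhgc5, the last gene, had a peak of 303 bp, from 37819584 to 37819886, at percentile 2.02.

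**Figure D2:**
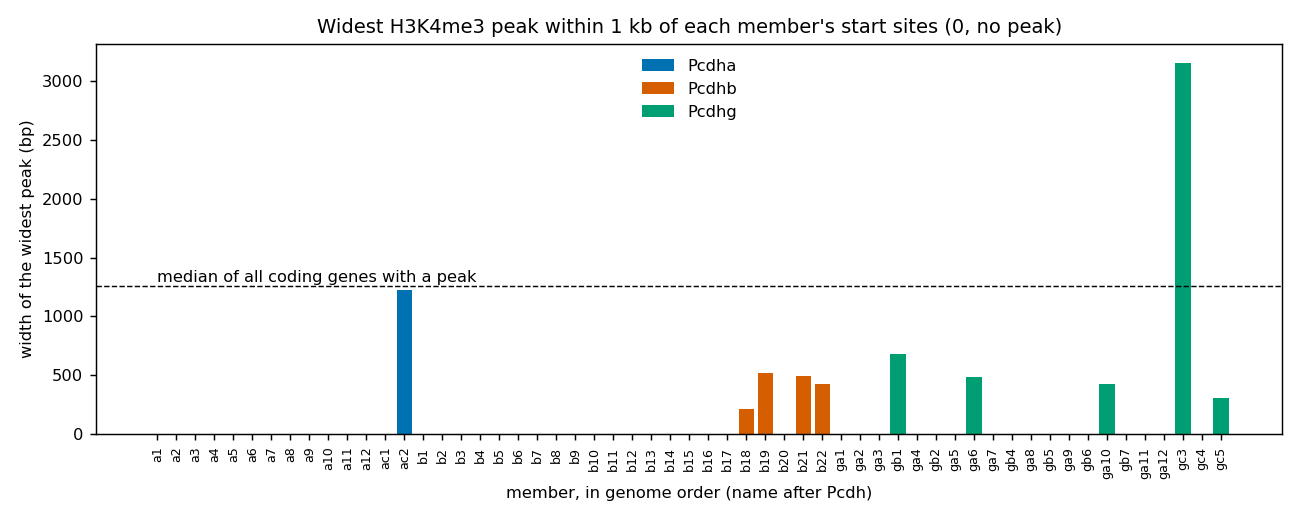
Width in bp of the widest H3K4me3 peak within 1 kb of a start site of each member, in genome order from Pcdha1 to Pcdhgc5; bars at 0 are members without a peak. The dashed line is the median of all protein-coding genes with a peak, 1255 bp, and only Pcdhgc3 exceeds it.

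Peaks at members were narrow. The median of the widest peak was 491 bp (range 212 to 3157 bp, 10 genes), against 1255 bp (quartiles 908 and 1710 bp) at all 12966 marked protein-coding genes. At the 7 marked variable genes widths ran from 212 to 679 bp, which corresponds to percentiles 0.509 to 11.8. The list held no peak under 200 bp, so the Pcdhb18 peak was close to the shortest length that was called. Without a score per peak, how far each stood above the calling threshold is unknown.

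Marked members also differed from all marked genes in where the widest peak lay relative to the TSS used. At most of them the widest peak began close to the TSS and ran into the first exon. Pcdhgc3 also had its second, narrower peak, which lay wholly upstream of the first TSS and is not part of these offsets. Offsets were measured from the TSS inside the widest peak closest to its centre, or else from the nearest TSS. The median start was -22 bp and the median end 481 bp at members, and -427 and 820 bp at all marked protein-coding genes. The number of annotated start sites to pick from was not matched between members and all genes. A start no more than 50 bp before the TSS was seen in 8 of 10 members (80%) and in 13.4% of all marked genes. Narrow peaks had such a start more often in general. Among genes whose widest peak was under 700 bp, 7 of 8 members (87.5%) and 32.6% of 1649 protein-coding genes had it. The limit of 700 bp lies just above the widest peak at a variable member (679 bp), and other limits were not tried. The peak contained a TSS at 6 of 10 members, against 89.2% of all marked genes. At Pcdhb18, Pcdhb22, Pcdhga6 and Pcdhga10 it began 200, 15, 55 and 30 bp after the TSS used. For Pcdhb22 that TSS was at 37518359, downstream of the first TSS at 37517871. Pcdhac2 and Pcdhgc5 were the members whose widest peak began farther upstream of the TSS used, at -191 and -70 bp. For Pcdhgc5 that TSS was at 37819654. Its peak lay wholly in the first exon, after the first TSS at 37819513.

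**Figure D3:**
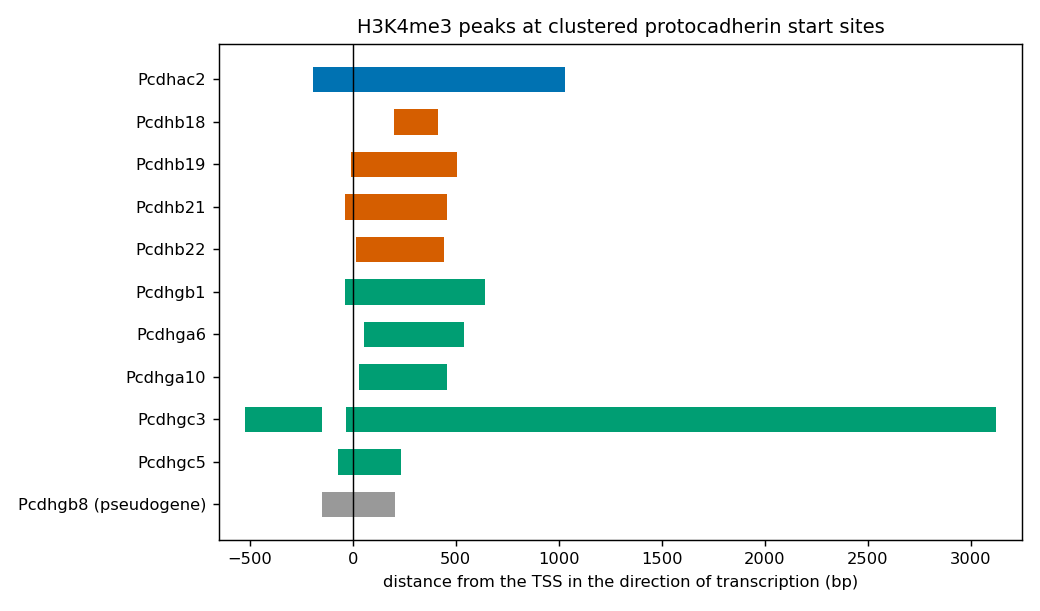
Extent of each H3K4me3 peak in bp from the TSS, in the direction of transcription; each bar is 1 peak and both Pcdhgc3 peaks are drawn from the same TSS. Except for Pcdhac2, the short peak before Pcdhgc3 and the pseudogene Pcdhgb8, the bars begin between -70 and 200 bp and extend into the gene.

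CpG islands, stretches rich in CpG dinucleotides, mark many promoters and often carry H3K4me3. They were called here from the reference sequence with repeats masked. An island lay within 1 kb of a TSS at 16 members (28.1%), against 12697 of 21938 protein-coding genes (57.9%). These were 8 Pcdha genes (Pcdha2, Pcdha5, Pcdha6, Pcdha10, Pcdha11, Pcdha12, Pcdhac1 and Pcdhac2), no Pcdhb gene, and 8 Pcdhg genes (Pcdhga2, Pcdhga3, Pcdhga5, Pcdhgb6, Pcdhgb7, Pcdhga11, Pcdhga12 and Pcdhgc3). Island members were marked in 2 of 16 cases (12.5%), Pcdhac2 and Pcdhgc3, whereas 90.04% of all island genes had a peak. Among the unmarked island members, the island spanned the annotated first TSS only at Pcdha5 and Pcdhac1. At Pcdha5 the annotation places the coding start at 0 bp from that TSS, with no untranslated stretch before it, and the island began at -2 bp. At the other unmarked island members the island began 134 bp (Pcdhga5) to 1422 bp (Pcdha11) after the first TSS, inside the long first exon. Island positions were not compared with those at other protein-coding genes. Members without an island were marked in 8 of 41 cases (19.5%), against 16.6% of all 9241 protein-coding genes without one.

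The islands of members were short. The longest island per gene had a median of 303 bp (range 207 to 1486 bp) at 16 members and 652 bp at protein-coding genes. At the 14 unmarked island members it was 207 to 699 bp. Pcdhac2 had an island of 978 bp, from 37143520 to 37144497, which lay inside its peak. Pcdhgc3 had one of 1486 bp, from 37805999 to 37807484, that overlapped both of its peaks. Under a stricter definition (at least 500 bp, GC content over 55%, observed to expected CpG over 0.65), 4 members kept an island, Pcdhac1, Pcdhac2, Pcdhga12 and Pcdhgc3. Of these, 2 had a peak, compared with 92.6% of 8510 protein-coding genes. Pcdhac1 was unmarked with an island of 543 bp that spanned its TSS, from 37089857 to 37090399.

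CpG density within 1 kb of the first TSS gave a finer view. Peaks were still counted at any TSS of a gene, so density and peak can refer to different start sites. Medians were 2.72 CpGs per 100 bp in Pcdha, 1.42 in Pcdhb and 2.70 in Pcdhg, against 4.60 at island genes and 1.00 at genes without an island. Between 2 and 3 CpGs per 100 bp, 2 of 25 members were marked (Pcdhgb1 and Pcdhga6) and 65.3% of 2410 protein-coding genes. Between 3 and 4, the counts were 1 of 8 (Pcdhga10) and 86.8% of 3038. Above 4, both members (Pcdhac2 and Pcdhgc3) had a peak, as did 93.05% of 8044 genes. In the class from 1 to 2 CpGs, which holds most Pcdhb genes, 4 of 19 members and 26.2% of 3390 genes were marked. Below 1 it was 1 of 3 (Pcdhb21) and 7.58% of 5056.

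**Figure D4:**
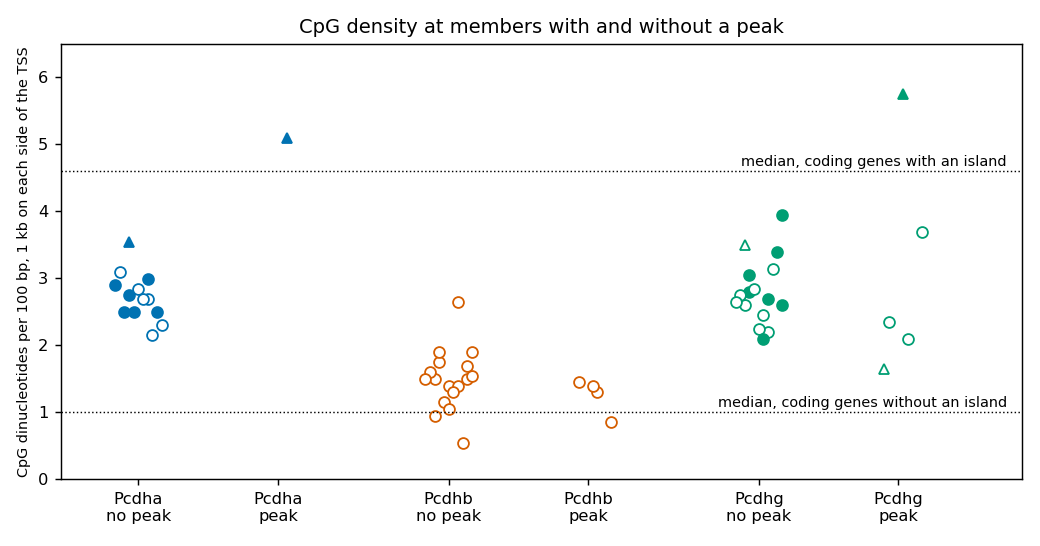
CpG dinucleotides per 100 bp within 1 kb of the first TSS, for members with and without a peak; circles are variable and triangles C-type genes, filled where a CpG island lies within 1 kb, and dotted lines are medians of protein-coding genes with (4.60) and without (1.00) an island. Pcdhac2 and Pcdhgc3 stand highest, and the 7 marked variable genes have no island.

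Within the variable genes, none of the 7 with a peak had an island, and 13 of the 45 without a peak did. Median ratios of observed to expected CpG were 0.376 and 0.483. The 4 marked and 18 unmarked Pcdhb genes had medians of 0.322 (range 0.201 to 0.376) and 0.344 (0.138 to 0.475), and these ranges overlapped. In Pcdhg the 3 marked and 15 unmarked variable genes had medians of 0.492 and 0.513, and again the ranges overlapped.

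Promoters of most clustered protocadherins are known to share a conserved sequence element with the core CGCT. The letters CGCT were searched on the strand of the gene from 250 bp before to 49 bp after the most upstream TSS. They occurred in 50 of 57 members (87.7%), in 51.1% of all protein-coding genes and in 70.6% of those with an island. By subcluster it was 12 of 14 Pcdha, 19 of 22 Pcdhb and 19 of 21 Pcdhg genes. Of the marked members 7 of 10 had the letters, and of the C-type genes 3 of 5. So short a word occurs often by composition alone, and a match is no evidence of a bound factor.

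Similar genes can lose reads that align to several places. The share of 75-base words within 1 kb of the first TSS that occur once in the genome had a median of 100% over the members (range 88.9 to 100). It was lowest in the variable Pcdha genes, with a median of 93.6% (88.9 to 99.01), the group with 0 of 12 marked. Marked members had 99.1 to 100% and unmarked members 88.9 to 100%, with a median of 98.96%. All words in the 11 peaks occurred once. In Pcdhb, 10 of the 18 unmarked genes had a share of 100%, so did all 4 marked ones, and in Pcdhg 9 of the 15 unmarked variable genes had it. The part of read placement in the missing peaks was not tested.

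Other genes put the members in context. Non-clustered protocadherins, single genes outside the clusters, had a peak at 10 of 12 genes, with a median width of 2073.5 bp. A CpG island lay at 9 of these 12 genes (75%), against 28.1% of members. Pcdh7 (7184 bp), Pcdh19 (3944 bp), Pcdh10 (2285 bp), Pcdh11x (2193 bp), Pcdh9 (2141 bp), Pcdh18 (2006 bp), Pcdh15 (1014 bp), Pcdh20 (903 bp), Pcdh17 (788 bp) and Pcdh1 (544 bp) were marked, while Pcdh8 and Pcdh12 were not. Pcdh1 and Pcdh12 lie 344041 and 425216 bp downstream of Pcdhg, and they also count among the neighbouring genes. Classical and type II cadherins, the wider adhesion family, were marked at 14 of 23 genes (60.9%), with a median of 1011 bp. This was near the 59.1% of all protein-coding genes. The Ugt1a genes on chromosome 1 also consist of alternative first exons joined to shared exons, and they encode enzymes that conjugate glucuronic acid. Of these, 1 of 9 was marked, Ugt1a7c with 259 bp, and none had an island.

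**Figure D5:**
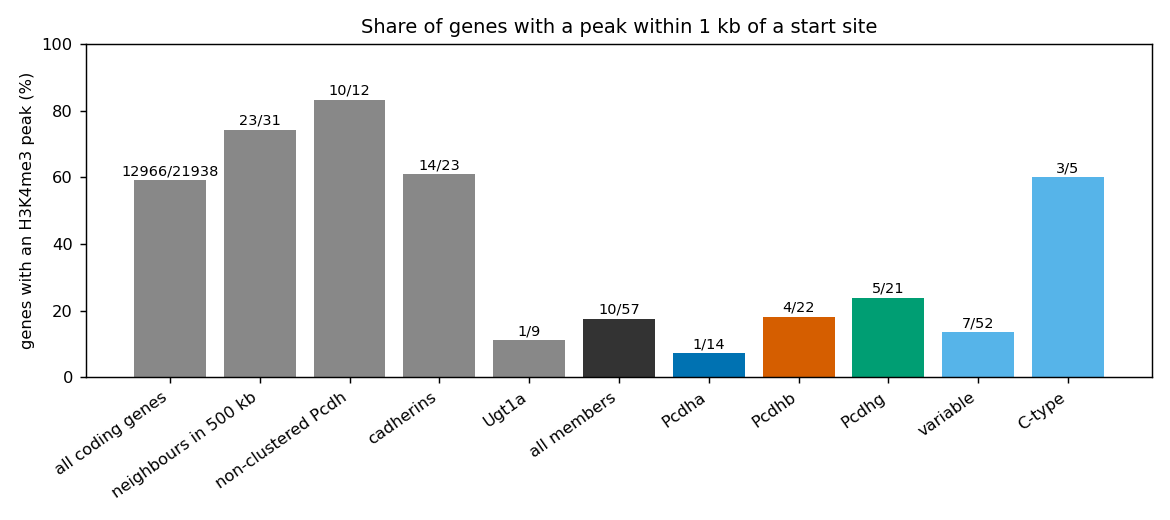
Percent of genes with an H3K4me3 peak within 1 kb of a TSS, with the counts above the bars; gray bars are comparison groups and the bars to the right are members, all together and by subcluster and exon type. The members reach 17.5%, all protein-coding genes 59.1% and the non-clustered protocadherins 83.3%.

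Genes around the clusters were mostly marked. Within 500 kb, 23 of 31 other protein-coding genes had a peak (74.2%), with a median width of 1176 bp. Over all protein-coding genes the share was 59.1%. A CpG island lay at 23 of the 31 neighbours (74.2%), against 16 of 57 members (28.1%). Peaks were found at 14 of 19 neighbours upstream, 8 of 10 downstream and 1 of 2 between Pcdhb and Pcdhg. The latter pair are Taf7, a subunit of the general transcription factor TFIID, with peaks of 971 and 280 bp, and Slc25a2, a mitochondrial carrier without a peak. Upstream, the closest marked gene was Zmat2, 130518 bp from Pcdha1 (809 bp), and the closest unmarked one was Dnd1 (163970 bp). Downstream, Diaph1, a formin that nucleates actin, ended 1728 bp past Pcdhg and carried a peak of 1290 bp at its start, and the closest unmarked gene was Arap3 (130755 bp).

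Genes for chromatin proteins known to act at these or similar clusters were all marked. The list of 19 held CTCF, cohesin and its loaders and release factors, DNA methyltransferases, and the silencing factors Smchd1, Setdb1 and Trim28. All 19 had a peak and all 19 had a CpG island, and of all island genes 90.04% had a peak. The peaks had a median width of 1435 bp (703 bp at Zfp143 to 2858 bp at Trim28). Ctcf had 2474 bp, Smchd1 2314 bp and the cohesin subunit Rad21 1435 bp. The labelled cell type was checked with marker genes. All 10 fibroblast markers, such as Col1a1 and Pdgfra, were marked, with a median of 2559 bp. It was 5 of 10 for neuron markers (582 bp) and 2 of 6 for epithelial markers (663 bp). Over all protein-coding genes the share was 59.1%, so the neuron markers lay near it. A CpG island lay at 5 of 10 fibroblast, 7 of 10 neuron and 5 of 6 epithelial markers.

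Counted by length, peak density differed between the subclusters. From the start of Pcdha1 to the end of Pcdhg, 911.69 kb held 17 peaks. This is a density of 18.6 per Mb, and the density over all chromosomes was 9.30 per Mb, with 7.98 on chromosome 18. The Pcdha span lay below both, with 3.88 per Mb, and the 77.276 kb between Pcdha and Pcdhb held 0 peaks. The Pcdhb span had 19.3 per Mb, the interval with Taf7 21.8 and the Pcdhg span 44.4. In Pcdhb and Pcdhg, where start sites are packed densely, the share of marked genes was thus below that of all protein-coding genes while the density per Mb was above that of all chromosomes. The share in Pcdhb was near the 16.3% of single-exon protein-coding genes. Of the 17 peaks, 11 were at members. The other 6 were the 2 at Taf7, those at Pcdhgb8 and near Pcdhb12, a peak of 292 bp from 37655602 to 37655893 within 1 kb of a TSS of 3222401L13Rik, and a peak of 364 bp from 37825130 to 37825493 beside the first constant exon of Pcdhg. The longest stretches without a peak were 241.771 kb, holding the start sites of Pcdha1 to Pcdhac1, and 285.024 kb, holding Pcdhb1 to Pcdhb11. Over the chromosomes the median gap was 24.7 kb, and 2044 of 25336 gaps were as long as the latter or longer.

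Putative enhancers had been defined by the authors in control cells from H3K4me1, H3K27ac and open chromatin away from start sites. The clusters held 5 of them. Their density was 5.48 per Mb, that of all chromosomes 12.1 and that of chromosome 18 13.8. All 5 lay at a C-type gene or among the constant exons. Both in Pcdha, 408 bp from 37172414 to 37172821 and 469 bp from 37178288 to 37178756, lay in the intron between constant exons 2 and 3. They contain the TSSs of the GENCODE transcripts Gm38097 and Gm10544. None was found among the first exons of Pcdha or in Pcdhb. The gap between 37178757 and 37806366, 627.61 kb without an enhancer, held all start sites of 40 members, from Pcdhb1 to Pcdhga12. It ended just after the first start site of Pcdhgc3, whose other start sites lay in the next enhancer. Of 32945 gaps between enhancers, 612 were as long or longer, and the median was 18.9 kb.

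In Pcdhg an enhancer of 2293 bp, from 37806367 to 37808659, overlapped the wide Pcdhgc3 peak by 2278 bp and contained start sites of Pcdhgc3 itself. Per the study's methods the definition left out windows around known start sites, yet GENCODE places start sites inside this region. A second, 1669 bp from 37824190 to 37825858, covered the whole first constant exon (37825021 to 37825079) and the 364 bp peak beside it. It also contained the TSS of Gm38182. The third, 1719 bp from 37835175 to 37836893, lay in the intron between constant exons 2 and 3. Behind the last first exon of Pcdhg, 2 enhancers in 19.739 kb make 101 per Mb, and in Pcdha 2 in 41.131 kb make 48.6 per Mb.

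Enhancers continued past the end of Pcdhg. Within 200 kb of the clusters there were 13, of which 8 were downstream and none upstream. The first, from 37842563 to 37843290, lay between the end of Pcdhg and Diaph1, and 5 more lay inside Diaph1. From Pcdhgc3 to the last of those in Diaph1, 9 enhancers fell within 73.813 kb. Their median width over the 13 was 728 bp, against 405 bp in the whole list. Of the 13, 3 overlapped an H3K4me3 peak, those at Pcdhgc3 and the first constant exon and one of 457 bp in Diaph1, from 37879723 to 37880179. Peaks downstream within 200 kb numbered 7, and upstream 12.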

How the data were processed

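The deposited files used here are 2 lists of positions (chromosome, start, end) with 0 columns of values per sample. Per the authors' methods, trimmed reads were aligned to mm10 with BWA, unusable reads were removed with SAMtools, Picard joined the replicates, and MACS called narrow peaks. The submitters' processing notes also name MACS2, deepTools and DESeq2. These lists give neither the depth reached nor replicate error, so no test was made. Starts of the deposited peak list were taken to count from 0 and those of the enhancer list from 1, from the widths. Start sites came from all transcripts of GENCODE M21. CpG islands scored 17 per CpG and -1 for other bases, over 200 bp, GC over 50% and observed to expected CpG over 0.6, which gave 16191. Functions were checked on simulated data, where 0 of 1200 interval queries differed from brute force. Python 3.11.15 and NumPy 2.4.6 were used. Genes named were all marked members, all C-type members, the ends of each subcluster and run, the closest neighbours and the list members. The members and lists were chosen with earlier results of these data known. Alternatives were other start sites, windows, peak sets, enhancer sets and island definitions.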

Additional observations from a re-analysis of the deposited data

How the results depend on the processing

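The same 10 members had a peak with start sites of coding transcripts, 1 start site per gene, RefSeq start sites, windows of 500 bp or 2 kb, the peak centre, merged peaks, or starts counted from 1. Requiring the peak to contain the TSS left 6 members and 6 distinct peaks, without Pcdhb18, Pcdhb22, Pcdhga6 and Pcdhga10, and 55.5% of protein-coding genes. Peaks of at least 500 bp left 4 members and 4 distinct peaks, Pcdhac2, Pcdhb19, Pcdhgb1 and Pcdhgc3, with a median width of 951 bp, and 55.6% of protein-coding genes. Enhancers numbered 25 within 500 kb of the clusters and 8 without those within 1 kb of a GENCODE TSS. Stricter CpG islands lay at 4 members. Of 40 alternative values, 32 stayed within 1.5 times the reported one. The values with Pcdhgb8, with the other counting base and for words that occur once, at 75 and 50 bases, were added after seeing the data. No paired analysis was possible because no column holds values of a sample. For the same reason no replicate could be left out, and the depth behind a missing peak is not given by the lists.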
